A study of Mus musculus with 5 samples.

Results

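Collecting duct principal cells of mouse kidney were selected from droplet single-cell libraries by their own UMI counts, where a UMI is a molecular identifier that counts 1 captured RNA molecule. A barcode was taken as a principal cell if at most 30% of its UMIs came from mitochondrial genes, at least 200 genes were detected, Aqp2 had at least 5 UMIs and at least 10 per 10000 UMIs, Hsd11b2, Avpr2, Aqp3 and Scnn1g together had at least 1 UMI, Slc8a1 and Trpv5 of the connecting tubule together had at most 2, Atp6v1g3 of intercalated cells had at most 2, and the leukocyte gene Ptprc had 0. The rule found 834 principal cells among 60043 barcodes that passed the mitochondrial and gene limits, out of 72896 barcodes in all. The control library held 312 of them, the 2 AKI libraries 59 and 34, and the 2 CKD libraries 417 and 12.

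Principal cells line the collecting duct, the last tubule segment, and set the final water and sodium content of urine. Vasopressin binds the receptor Avpr2, raises cyclic AMP and brings the water channel Aqp2 to the apical membrane, from where water leaves through the basolateral channels Aqp3 and Aqp4. Aldosterone acts through the mineralocorticoid receptor Nr3c2, which Hsd11b2 shields from glucocorticoids, to raise sodium entry through the epithelial channel of Scnn1a, Scnn1b and Scnn1g while potassium leaves through Kcnj1. Distal nephron cells are also a known source of Lcn2, the iron-scavenging protein measured in urine as a sign of tubular injury.

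The mice were male wild-type C57BL/6 animals aged 8 to 10 weeks. Aristolochic acid I (AAI), a plant nephrotoxin that injures mainly the proximal tubule, was given by intraperitoneal injection at 3 mg/kg every 3 days over 2 weeks. AKI libraries were made at week 2 and CKD libraries at week 4, after 2 weeks without AAI, and control mice received vehicle. Whole kidneys were digested with collagenase IV and DNase I and sequenced with the Chromium 3′ v2 chemistry, with 1 control, 2 AKI and 2 CKD libraries. The labels do not say that libraries of 1 group came from separate mice, so p-values measure the spread between these libraries, which may be technical, and the lone control library had no replicate.

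The libraries held 90028670 to 121316769 UMIs. Barcodes over the mitochondrial limit made up 38.7% of the control library and 11.1% to 12.7% of the others. Principal cells had a median of 9518.5 UMIs in control, 15778 and 11910 in AKI, 2754 in CKD 1 and 17567.5 in CKD 2, and 13 of the 834 had a barcode sequence that occurred in another library as well. Barcodes that passed a T lymphocyte gate (Cd3d, Cd3e and Cd3g together at least 2 UMIs, with Ptprc) served as the reference for free RNA, since T lymphocytes should lack tubule genes. Aqp2 in these barcodes was at 0.220 to 1.77 UMIs per 10000, highest in the control library.

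The selected cells carried the genes of a principal cell that the rule had not used. Fxyd4, a regulator of the sodium pump in the collecting duct, was at 55.8 per 10000 in control, 49.8 and 65.0 in AKI, 39.4 in CKD 1 and 53.8 in CKD 2, while T lymphocytes of the same libraries held 0.197 to 1.03. Aqp4 was at 5.20 in control, 6.93 and 6.55 in AKI, and 5.92 and 5.21 in CKD, with at most 0.0843 in T lymphocytes. Of the genes of the rule, whose levels follow from the selection, Aqp2 was at 67.1 in control, 103 and 82.5 in AKI, and 88.4 and 70.2 in CKD. Hsd11b2 was at 44.6, 34.3, 35.2, 21.3 and 31.1 in the same order, and Avpr2 at 3.91, 2.39, 2.16, 2.46 and 2.04.

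CKD 1 stood apart from the other libraries. Its 153 cells with 5 to 9 Aqp2 UMIs held 9 further principal cell genes (Fxyd4, Gata3, Aqp4, Elf5, Scnn1a, Scnn1b, Kcnj1, Npnt and Cldn8) at a summed 23.4 per 10000, its 111 cells with 10 to 19 at 34.5, and its 153 cells with 20 or more at 92.8. In the first of these bands T and NK lymphocyte markers summed to 26.8 and proximal tubule markers to 27.9, against 4.93 and 11.1 in the last. The cells of CKD 1 with few Aqp2 UMIs therefore went against the principal cell label, and those with 20 or more had the level of the 9 genes seen in the other libraries (88.0 to 102). Markers of other cells stayed higher there than in the same band of the other libraries. Proximal tubule markers were at 11.1 against 0.444 to 3.70, and T and NK markers at 4.93 against 0.152 to 2.00. Cells at the edge of the rule were mostly from this library: 44 of the 52 members with exactly 5 Aqp2 UMIs, and 51 of the 61 barcodes that missed the rule by 1 Aqp2 UMI. In CKD 1 the cells just inside had Fxyd4 at 8.13 per 10000 and those just outside at 9.86. CKD 2 held 12 members, fewer than the 20 required for a sum to enter the test, so group counts in CKD are those of CKD 1 unless said otherwise, and named genes are given for CKD 1 and CKD 2 separately.

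**Figure D1:**
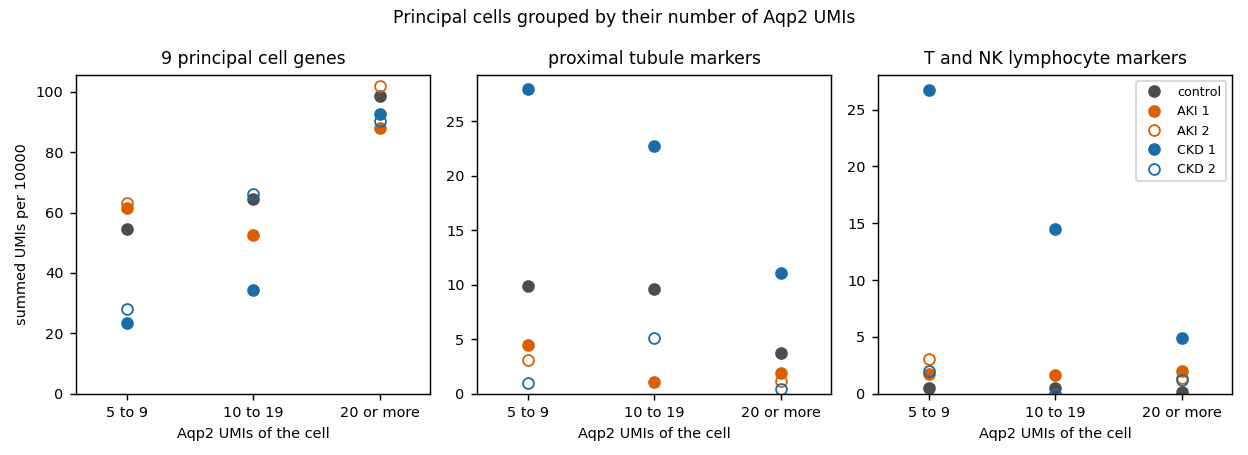
Summed UMIs per 10000 of 9 principal cell genes, proximal tubule markers and T and NK lymphocyte markers (vertical axes) for principal cells grouped by their number of Aqp2 UMIs (horizontal axis), 1 point per library. CKD 1 alone had many cells with few Aqp2 UMIs, and in those the 9 genes were at 23.4 and 34.5 while the markers of other cells were at their highest.

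Principal cells formed a smaller share of the AKI libraries than of the control library. They were 3.40% of kept barcodes in control (95% exact binomial interval 3.04 to 3.79), 0.527% in AKI 1 (0.401 to 0.679), 0.313% in AKI 2 (0.217 to 0.438), 2.16% in CKD 1 (1.96 to 2.37) and 0.126% in CKD 2 (0.0652 to 0.220). Intervals cover counting error only. Of epithelial barcodes, those with Epcam or Cdh16 and no Ptprc, they were 8.27%, 4.50%, 3.08%, 7.97% and 2.76% in the same order. The 2 CKD libraries lay on opposite sides of both AKI libraries, so the CKD mean minus the AKI mean, 0.723 percentage points, was smaller than the pooled SD of 1.02, and it was -0.294 without CKD 1. Among cells with 20 or more Aqp2 UMIs the shares of kept barcodes were 2.90% in control, 0.437% and 0.240% in AKI, 0.792% in CKD 1 and 0.0947% in CKD 2, and under a stricter rule that barred more genes of other cells 0.731%, 0.357%, 0.230%, 0.647% and 0.0736%. The CKD minus AKI difference was then 0.105 and 0.0667 percentage points. With 2 libraries against 2, no exact permutation test can pass 0.05. In a dissociated tissue, fewer principal cells and poorer recovery of them cannot be told apart.

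**Figure D2:**
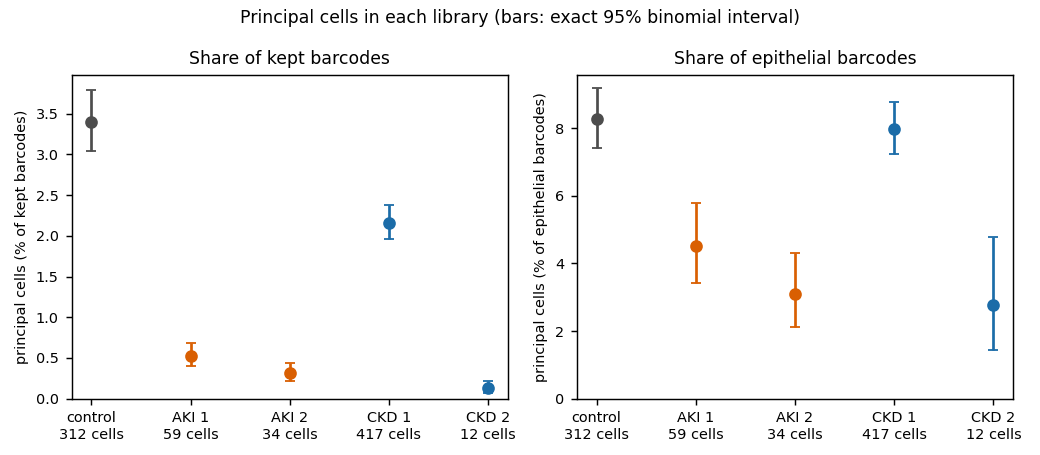
Principal cells as a percentage of kept barcodes (left) and of epithelial barcodes (right) in each library, with exact 95% binomial intervals. Both AKI libraries and CKD 2 were low, at 0.126% to 0.527% of kept barcodes, and control and CKD 1 were high, at 3.40% and 2.16%, of which 2.90% and 0.792% had 20 or more Aqp2 UMIs.

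Between control and AKI the principal cells gained injury, interferon, antigen presentation and NF-kB genes. Of the 11 genes tested that define a principal cell 3 changed, and none of the 11 passed with CKD 2 in the fit. UMIs of the principal cells were summed per library and tested in edgeR by its quasi-likelihood method, p-values were adjusted by Benjamini and Hochberg over all 10429 genes tested, and a gene is said to have risen or fallen if its adjusted p was under 0.05. In AKI 526 genes passed, 5.04% of those tested, with 388 higher (3.72%) and 138 lower (1.32%). The fit used control, AKI 1, AKI 2 and CKD 1, so its spread came from the pair of AKI libraries. With the 12 cells of CKD 2 added, all 526 kept their direction. CKD 2 is not part of this comparison and entered only the spread, the filter and the scaling, so the direction was largely fixed. In that fit 13 genes passed (0.135% of 9647), and 665 had an unadjusted p under 0.05. Those 13 were Lcn2, Krt19, Ifitm3, Iigp1, Ifi47, H2-Q6, Ccn2, Ociad2, Dcdc2a, Akap12 and Gm20186, which were higher (0.114%), and Slc14a2 and Pgam2, which were lower (0.0207%).

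Of tubular injury and keratin genes, 19 of 25 tested rose and none fell, with a median log2 fold change of 1.26 against -0.01 over all genes tested. The number that rose was 2 of 25 with CKD 2 in the fit and 10 of 29 with DESeq2. Lcn2 was at 2.42 per 10000 in control, 27.3 and 43.2 in the AKI libraries, and 16.1 and 9.11 in the CKD libraries. Both AKI libraries lay far above control, and the log2 difference was 3.92 ± 0.22 (SE; adjusted p = 7.22e-12, and 0.0285 with CKD 2 in the fit). T lymphocytes held Lcn2 at 0.0636 in control and at most 1.84 in the AKI libraries. The gain was spread over the cells rather than carried by a few: 55 of 59 AKI 1 cells and 33 of 34 AKI 2 cells had a Lcn2 UMI, against 178 of 312 control cells. After thinning every cell to 1500 UMIs, which left out 48 shallower members, the share with Lcn2 was 23.9% in control (19.3 to 29.1), 89.1% in AKI 1 (77.8 to 95.9) and 90% in AKI 2 (73.5 to 97.9), while 0.350% to 6.95% of thinned T lymphocytes had one.

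Spp1, the secreted phosphoprotein osteopontin, was at 4.33 in control, 88.6 and 70.2 in AKI, 141 in CKD 1 and 50.8 in CKD 2. It was higher in each AAI library than in control, with a log2 difference of 4.25 ± 0.15 in AKI (adjusted p = 7.58e-17, but 0.0663 with CKD 2 in the fit). T lymphocytes held Spp1 at 5.18 in control and at 24.6 and 22.3 in AKI. Clu, a chaperone of injured epithelium, was at 1.39 in control, 10.997 and 22.0 in AKI, 16.4 in CKD 1 and 2.42 in CKD 2. Its AKI difference was 3.62 ± 0.28, and CKD 2 lay near control. T lymphocytes held Clu at 1.52 in control and 4.25 and 2.57 in AKI. Control principal cells lay below that, so the size of the rise rests on a level at background. In AKI 2, 3 of 34 cells held 68.4% of the Clu UMIs. The median cell was at 4.41 in AKI 1 and 5.85 in AKI 2.

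The keratins of simple epithelia moved less. Krt8 was at 9.23 in control and at 18.4 and 16.2 in AKI, a log2 difference of 0.97 ± 0.16 (adjusted p = 0.000173), and its partner Krt18 rose by 1.04 ± 0.15 from 10.1 to 19.3 and 20.8. Krt19 rose from 0.0660 to 0.802 and 0.991 (3.76 ± 0.37). Further injury genes that rose included Vim, S100a10, Plaur, S100a11, Sox9, Tnfrsf12a, Anxa1, S100a6, Tmsb10, Anxa2, Cd44 and Cd24a. Of these, Vim, S100a10, S100a6, Tmsb10 and Cd44 were higher in T lymphocytes than in principal cells of every library. Krt7, a collecting duct keratin, was at 6.50 in control and 4.22 and 7.28 in AKI and did not pass.

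**Figure D3:**
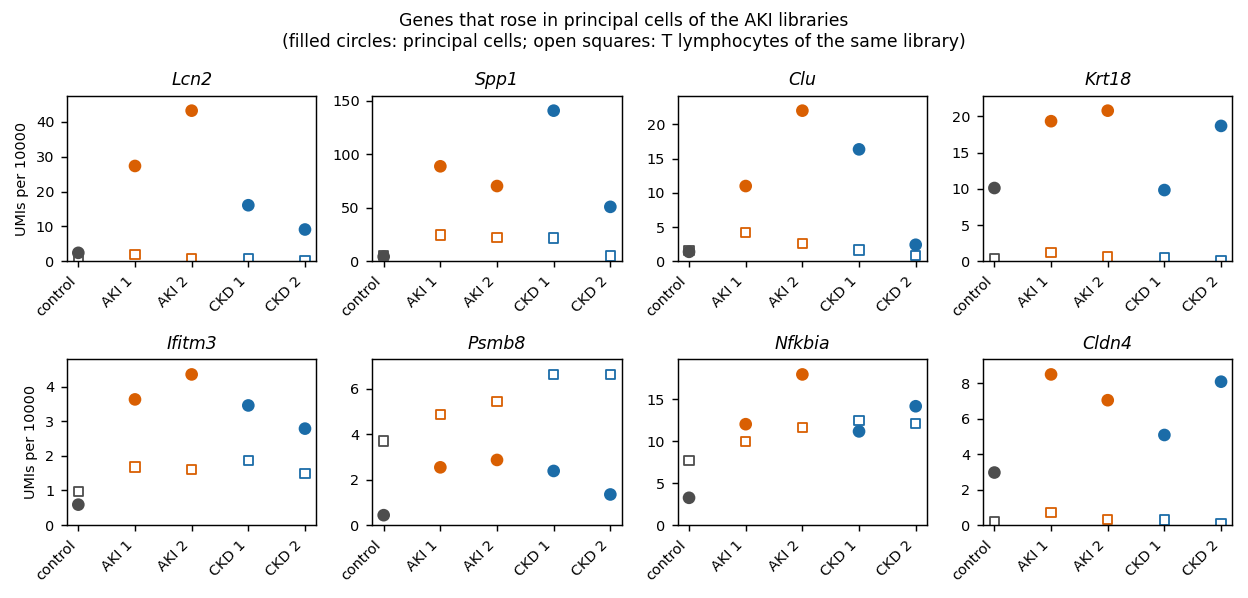
UMIs per 10000 of 8 genes that rose in AKI, in principal cells (filled circles) and in T lymphocytes of the same library (open squares). Lcn2, Krt18 and Cldn4 were low in T lymphocytes, while Psmb8 was higher there than in principal cells in all 5 libraries.

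Interferon-induced genes rose together: 17 of 30 tested passed and none fell (median log2 fold change 1.82). Fewer rose with CKD 2 in the fit (2 of 28) or with DESeq2 (9 of 30). Ifitm3, which blocks virus entry, was at 0.591 in control, 3.63 and 4.36 in AKI, and 3.46 and 2.79 in CKD. All 4 AAI libraries were above control, and the AKI difference was 2.80 ± 0.23 (adjusted p = 5.29e-09, and 0.0285 with CKD 2). Ifit1, which binds viral RNA, was at 0.191 in control, 2.43 and 1.38 in AKI, and 2.35 and 1.25 in CKD (3.42 ± 0.30 in AKI). The ubiquitin-like Isg15 rose from 0.257 to 1.57 and 1.33 (2.57 ± 0.27), and the surface protein Ly6e from 13.6 to 34.9 and 39.8 (1.51 ± 0.14).

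Genes of MHC class I and the immunoproteasome, which cut proteins into peptides and display them, did the same: 10 of 15 rose and none fell (median 1.59). Here 0 of 15 rose with CKD 2 in the fit and 4 of 15 with DESeq2. The light chain B2m was at 2.49 in control, 9.76 and 8.66 in AKI, and 8.79 and 4.55 in CKD (1.94 ± 0.18 in AKI). The heavy chain H2-K1 was at 5.52, 18.5 and 15.9, then 9.74 and 7.62 (1.70 ± 0.16), and the proteasome subunit Psmb8 at 0.435, 2.54 and 2.87, then 2.38 and 1.35 (2.67 ± 0.24). Psmb9, Psmb10, Tap1, Tap2, Tapbp, H2-D1 and H2-T23 also rose. Of MHC class II, 4 of 6 genes rose (Cd74, H2-Aa, H2-Ab1 and H2-DMb1), and none rose with CKD 2 in the fit or with DESeq2. A single cell held 141 of 266 Cd74 UMIs in control, 111 of 227 in AKI 1 and 7 of 47 in AKI 2. T lymphocytes held Cd74 at 5.99 in control and 12.5 and 17.6 in AKI. The median principal cell was at 0.703 in AKI 1 and 0.687 in AKI 2, and the part of free RNA was not tested.

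Leukocyte RNA moved with these groups. T and NK markers summed to 0.175 per 10000 in control principal cells, 1.99 in AKI 1 and 1.49 in AKI 2, against 64.0, 99.4 and 101 in the T lymphocytes of the same libraries, and T lymphocytes held B2m, Psmb8, Ifit1 and Isg15 above the principal cell level in all 5 libraries. The part of free or captured leukocyte RNA in the rises was not tested. The stricter rule, which also barred Cd3e, Pecam1, Emcn and Col1a1 and allowed at most 2 UMIs of other segments, kept 264 cells, and there 475 of the 526 genes could be tested, 472 had the same direction and 273 passed.

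Promoters of the genes that rose were searched for the letters that interferon-activated factors are known to bind. GAAANNGAAA, the core of the interferon-stimulated response element, was searched on both strands from 250 bases before to 50 after the start of each gene (RefSeq, GRCm38.p6). It was found in 9 of the 12 interferon genes that rose and had a promoter in the table, in 2 of 9 MHC class I genes that rose, and in 3.99% of all genes. The whole lists, risen or not, held it in 13 of 22 interferon and 3 of 13 MHC class I genes. GGGANNNNCC, a form of the NF-kB site, was found in 7 of 10 NF-kB response genes that rose, in 11 of 20 of their whole list and in 22.9% of all genes. The lists were made of known response genes, so matches may follow from the lists, and what drove the rises was not tested. These are matches of letters and not measured binding. The 250 bases before the start are shown for an RNA sensor, a ubiquitin-like protein and the MHC light chain that all rose, with matches to the first motif in capitals: 2 in Ifit1 (chr19:34640639-34640888, plus strand), 3 overlapping in Isg15 (chr4:156200819-156201068, minus strand) and 1 in B2m (chr2:122147437-122147686, plus strand).
Ifit1: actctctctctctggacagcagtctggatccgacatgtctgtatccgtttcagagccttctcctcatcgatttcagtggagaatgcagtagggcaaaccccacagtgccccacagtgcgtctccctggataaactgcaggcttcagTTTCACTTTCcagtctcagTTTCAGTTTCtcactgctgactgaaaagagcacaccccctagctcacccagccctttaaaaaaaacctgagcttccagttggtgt
Isg15: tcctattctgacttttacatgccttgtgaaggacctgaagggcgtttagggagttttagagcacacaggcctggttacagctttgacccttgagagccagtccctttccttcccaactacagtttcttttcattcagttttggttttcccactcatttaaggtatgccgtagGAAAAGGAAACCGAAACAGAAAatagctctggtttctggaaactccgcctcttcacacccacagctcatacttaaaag
B2m: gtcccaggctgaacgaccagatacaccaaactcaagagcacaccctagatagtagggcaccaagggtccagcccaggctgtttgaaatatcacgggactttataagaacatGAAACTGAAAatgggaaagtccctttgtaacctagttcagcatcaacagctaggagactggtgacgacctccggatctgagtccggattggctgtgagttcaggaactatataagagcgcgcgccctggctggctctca

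NF-kB and cytokine response genes rose in 13 of 22 cases with none lower (median 1.52). That number was 0 of 21 with CKD 2 in the fit and 4 of 24 with DESeq2. Nfkbia, the inhibitor that NF-kB itself induces, was at 3.25 in control, 12.0 and 18.0 in AKI, and 11.2 and 14.2 in CKD, so that all 4 AAI libraries exceeded control (2.25 ± 0.21 in AKI). Cebpb, a transcription factor of the acute phase response, was at 1.91, 6.33 and 6.31, then 4.83 and 8.13 (1.78 ± 0.19). Icam1, an adhesion molecule for leukocytes, rose from 0.191 to 0.919 and 1.02, and Tnfaip3, a brake on NF-kB, from 0.323 to 1.12 and 1.04. T lymphocytes held Icam1 at 0.724 in control and 0.987 and 0.953 in AKI. In AKI 2, 25 of the 39 Icam1 UMIs of principal cells lay in 1 cell.

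Among secreted signals 13 of 26 rose, and Bmp7, an antifibrotic factor of the distal tubule, fell. Rises numbered 1 of 26 with CKD 2 in the fit and 7 of 34 with DESeq2. Ccn2, connective tissue growth factor, was at 0.241 in control, 2.13 and 1.93 in AKI, and 0.601 and 0.837 in CKD. The AKI libraries were the highest and the difference from control was 3.13 ± 0.28 (adjusted p = 2.12e-08, and 0.0250 with CKD 2). Hbegf, a ligand of the EGF receptor, rose from 5.96 to 16.0 and 14.0 (1.39 ± 0.16), and the stress cytokine Gdf15 from 13.4 to 24.4 and 24.4 (0.92 ± 0.14). The chemokines Cxcl1, Cxcl2, Cxcl10, Cxcl16 and Ccl2 rose as well. T lymphocytes of the AKI libraries held Cxcl10 at 13.3 and 14.6, Cxcl2 at 1.85 and 3.62 and Ccl2 at 0.701 and 1.07, above the principal cells (0.887 and 0.913, 0.791 and 0.913, 0.0962 and 0.0261), while Cxcl16 was higher in principal cells, and the part of free RNA in these rises was not tested. The tight junction genes Cldn4, Cldn3 and Ocln rose, 3 of 18 in their group, with Cldn4 at 2.96 in control and 8.50 and 7.04 in AKI (1.45 ± 0.19).

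Growth arrest and early response genes moved in part. Of 21 p53 targets 6 rose, against 0 of 21 with CKD 2 in the fit and 2 of 26 with DESeq2. Among the 6 was the cell cycle inhibitor Cdkn1a (0.211 in control, 1.47 and 1.17 in AKI). T lymphocytes held Cdkn1a at 0.506 in control and 2.28 and 1.84 in AKI, above the principal cells. In AKI 2, 21 of its 45 UMIs lay in 1 cell, and the part of free RNA was not tested. Of 30 immediate-early and heat shock genes 10 rose, against 0 of 30 with CKD 2 in the fit and 4 of 31 with DESeq2. None of the 23 cell cycle genes tested passed in AKI, where their median log2 fold change was 0.41; DESeq2 called none of them either. Ribosomal protein genes rose in 11 of 57 cases (median 0.34), and 4 of 74 nuclear respiratory chain genes fell, namely Cox7b, Ndufa4, Atp5a1 and Atp5b (median -0.28). With CKD 2 in the fit 0 of 57 and 0 of 74 passed, and the same held with DESeq2.

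Of 11 genes tested that define the principal cell, Wfdc2 rose and Tfcp2l1 and Tfap2b fell (median -0.07). With CKD 2 in the fit 0 of 11 passed, and with DESeq2 1 of 11 rose and 0 fell. Tfcp2l1, a transcription factor of collecting duct cells, was at 7.21 in control, 3.89 and 2.84 in AKI, 2.28 in CKD 1 and 4.65 in CKD 2. All 4 AAI libraries lay below control, and the AKI difference was -1.02 ± 0.19 (adjusted p = 0.000830). Tfap2b, another factor of the distal nephron, was at 1.35, 0.502 and 0.443, then 0.420 and 0.930 (-1.43 ± 0.27 in AKI). Wfdc2, a secreted protease inhibitor, rose from 13.4 to 22.7 and 27.7 (0.97 ± 0.15). Fxyd4, Aqp4, Gata3, Elf5, Npnt, Cldn8, Apela and Krt7 did not pass. For Fxyd4 the difference was 0.10 ± 0.13 (adjusted p = 0.849).

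Of 23 sodium and potassium transport genes 7 fell and 1 rose (median -0.36), and 10 fell when library totals alone scaled the counts. Scnn1a, the alpha subunit of the epithelial sodium channel, was at 4.28 in control, 2.12 and 2.45 in AKI, and 1.50 and 1.67 in CKD. Control was the highest, and the AKI difference was -0.87 ± 0.20 (adjusted p = 0.00629). Scnn1b, the beta subunit, was at 4.82, 3.04 and 4.33, then 2.89 and 3.25, with a difference of -0.36 ± 0.20 that did not pass (adjusted p = 0.450). The basolateral potassium channel Kcnj10 was at 1.27, 0.513 and 0.443, then 0.432 and 0.372 (-1.33 ± 0.28).

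The remaining genes of this group that fell were Nedd4l, the ubiquitin ligase that removes the sodium channel (1.62 in control, 0.727 and 0.809 in AKI), Nr3c2 (0.637, 0.331 and 0.183), Kcne1, Klhl3 and Usp2. Fxyd5, another regulator of the sodium pump, rose from 0.0528 to 0.235 and 0.156, while T lymphocytes held 4.08 in control and 5.39 and 5.75 in AKI. The apical potassium channel Kcnj1 (-0.51 ± 0.20) and the sodium pump subunit Atp1b1 (0.26 ± 0.12) did not pass, nor did the aldosterone-induced kinase Sgk1 (0.45 ± 0.26). None of the 7 that fell passed with CKD 2 in the fit or with DESeq2.

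Free RNA of several of these genes was higher in the control library. T lymphocytes held Scnn1a at 0.688 in control and 0.146 and 0.0496 in AKI, Tfcp2l1 at 1.18 in control and 0.363 and 0.191 in AKI, and Kcnj10 at 0.261 in control and 0.0442 and 0.0215 in AKI. Control principal cells held Scnn1a at 4.28, several times that level. The part of free RNA in these falls was not tested.

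**Figure D4:**
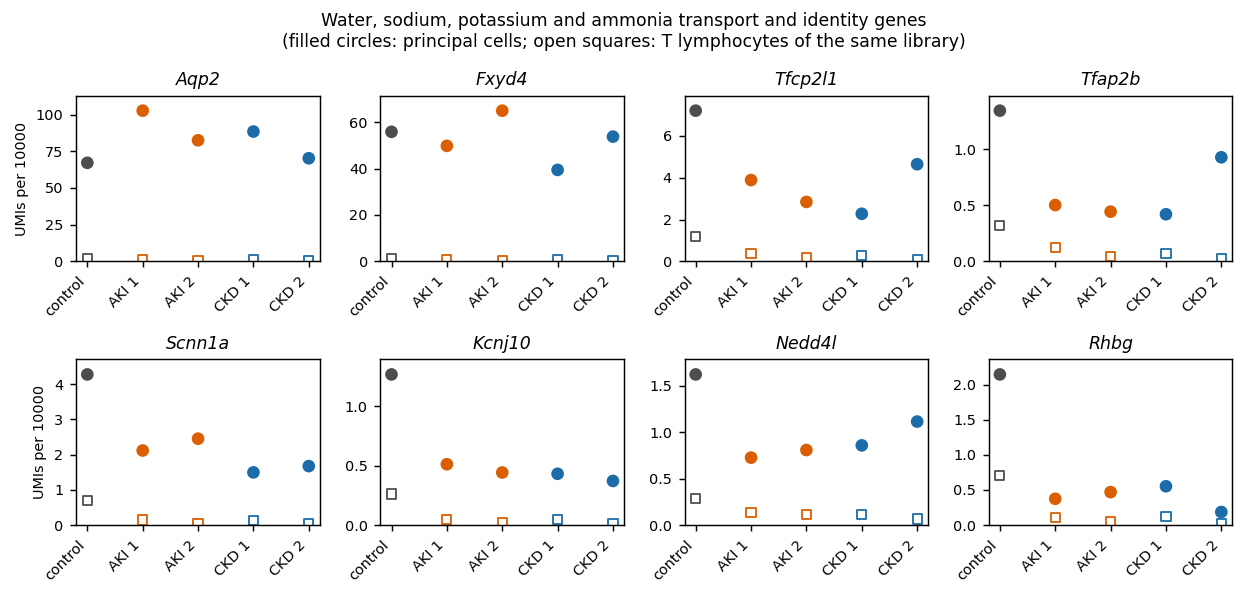
UMIs per 10000 of 8 water, sodium, potassium and ammonia transport and identity genes, in principal cells (filled circles) and in T lymphocytes of the same library (open squares). Control principal cells were highest for Tfcp2l1, Tfap2b, Scnn1a, Kcnj10, Nedd4l and Rhbg, while Fxyd4 lay between 39.4 and 65.0 with the control library inside that range.

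In vasopressin and cyclic AMP signalling 3 of 23 genes rose (Akap12, Pde4b and Crem) and 3 fell (Slc14a2, Rap1gap and Akap7), with a median of -0.15. With CKD 2 in the fit 1 of 23 rose and 1 fell, and with DESeq2 1 of 25 rose and 1 fell. T lymphocytes of the AKI libraries held Akap12 at 0.485 and 0.502, Crem at 0.806 and 0.868 and Pde4b at 1.06 and 1.04. Principal cells held Akap12 at 0.460 and 0.469, and all 18 UMIs of AKI 2 lay in 1 cell. The part of free RNA in these rises was not tested. The receptor's G protein Gnas was at 7.68 in control and 8.18 and 7.62 in AKI (0.10 ± 0.16), and the adenylyl cyclase Adcy6 at 0.861, 0.598 and 0.339 (-0.72 ± 0.30); neither passed. Akap7, an anchor of protein kinase A, was at 0.383, 0.128 and 0.130 (-1.51 ± 0.43, adjusted p = 0.0388).

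Several of the largest changes came from single cells. The 10 largest rises, among genes that passed, did not overlap between groups and had a mean of at least 20 CPM, were Sprr2f, Cd3g, Cdkn1c, Plat, Ociad2, Ccl5, Akap12, Spp1, Lcn2 and Clic3. The 10 largest falls were Egf, Slc14a2, Slc12a3, Klk1, Dbp, Pgam2, Mgp, Miox, Rhbg and Dnase1. For Mgp, 123 of 195 control UMIs lay in 1 cell, and its difference was 0.0427 under the stricter rule. Of 97 Cdkn1c UMIs in AKI 1, 95 lay in 1 cell, as did 101 of 103 Plat UMIs, and 131 of the 135 Sprr2f UMIs of AKI 2. In control, 284 of the 325 UMIs of the urea transporter gene Slc14a2 lay in 1 of 312 cells. When each gene was recounted without the cell that held most of its UMIs in each library, Slc14a2, Akap12, Clic3 and Plat no longer passed and Cdkn1c and Sprr2f were too low to be tested. Of all 526 genes, 513 could still be tested and 444 passed.

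Ociad2 was spread over many cells. T lymphocytes held it at 0.246 in control and at 0.112 and 0.0685 in AKI. Control principal cells lay below that, so the size of the rise rests on a level at background. In principal cells Ociad2 was at 0.0495 per 10000 in control, 1.16 and 1.33 in AKI, 0.877 in CKD 1 and 0.325 in CKD 2. It was found in 11 of 312 control cells, 41 of 59 and 21 of 34 AKI cells, and 92 of 417 and 5 of 12 CKD cells. Its AKI difference was 4.67 ± 0.38 (adjusted p = 3.71e-09, and 0.0252 with CKD 2). Rhbg, an ammonia transporter, fell from 2.14 to 0.374 and 0.469 (-2.35 ± 0.27), Pgam2, the muscle-type phosphoglycerate mutase of glycolysis, from 1.75 to 0.331 and 0.209 (-2.54 ± 0.29), and Dbp, an output gene of the circadian clock, from 0.920 to 0.182 and 0.0522 (-2.66 ± 0.37).

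Other large falls were in genes of neighbouring segments. Egf, of the thick ascending limb and distal convoluted tubule, was at 2.39 in control principal cells and 0.0427 and 0.0522 in AKI, while T lymphocytes held 7.24 in control and 0.146 and 0.0301 in AKI. The same order held for Klk1 (3.51, 0.342 and 0.443 in principal cells; 16.6, 1.87 and 0.757 in T lymphocytes) and for Slc12a3 (1.06, 0.0855 and 0.0522; 2.38, 0.340 and 0.163). In control each of the 3 was lower in principal cells than in T lymphocytes, which should lack them, and the part of free RNA in these falls was not tested. Connecting tubule markers (Calb1, S100g and Klk1) summed to 20.1 in control principal cells and 5.90 and 7.30 in AKI. Endothelial markers summed to 1.21 in control and 3.39 and 1.46 in AKI, and Cdh5 and Pecam1 of that list rose. A single cell held 31 of 34 Cdh5 UMIs in AKI 1 and 7 of 8 in AKI 2, and 24 of 39 and 6 of 8 for Pecam1.

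At week 4 the 2 CKD libraries shared some differences from AKI and were opposite in others. Against AKI, CKD 1 differed in 422 genes (4.05% of 10429), 342 higher (3.28%) and 80 lower (0.767%). With library totals alone in place of TMM scaling the median of all genes shifted by -0.15 and the split was 337 higher and 289 lower. With CKD 2 in the fit 0 of 9647 genes passed in edgeR, 486 had an unadjusted p under 0.05, and 418 of the 422 kept their direction. CKD 1, on which the 422 were called, is still in that fit, so kept direction does not show agreement of CKD 2. A fit with 1 CKD library takes its spread from the AKI pair and measures none between CKD libraries. Fitted with CKD 2 as the lone CKD library, 79 of 8181 genes passed (0.966%), with the opposite balance of 29 higher (0.354%) and 50 lower (0.611%).

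Genes that had risen in AKI and were lower in each CKD library were found among the injury, interferon and MHC groups. Car15, a membrane-bound carbonic anhydrase, was at 6.91 in control, 27.8 and 28.2 in AKI, and 9.27 and 5.76 in CKD. Both AKI libraries were above all others and the CKD libraries lay on either side of control. The log2 difference from AKI was -1.45 ± 0.15 for CKD 1 and -2.32 ± 0.19 for CKD 2. It was detected in 189 of 312 control cells, 55 of 59 and 29 of 34 AKI cells, and 253 of 417 and 8 of 12 CKD cells. T lymphocytes held it at 2.84 in control and 0.101 to 0.970 elsewhere. Car15 was singled out after its values were seen.

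Lcn2 was lower than in AKI by -0.98 ± 0.19 in CKD 1 and by -2.00 ± 0.18 in CKD 2. It was still above control in both, by 2.93 ± 0.22 and 1.91 ± 0.20. Ccn2 was lower by -1.61 ± 0.26 and -1.33 ± 0.36, and the interferon-induced GTPase Iigp1 by -1.65 ± 0.30 and -1.86 ± 0.48. Ly6e was lower by -0.65 ± 0.14 and -0.69 ± 0.16, and H2-K1 by -0.67 ± 0.16 and -1.22 ± 0.19. With CKD 2 in the fit 0 of 9647 genes passed, so none of these did. CKD 2 had fewer cells than the 20 required, and its Iigp1 rested on 8 UMIs in 2 cells. Its Ccn2 rested on 18 UMIs in 4 cells, 10 of them in 1 cell. The fits of CKD 1 and of CKD 2 share the AKI libraries and take their spread from that pair, so they are not independent.

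Other genes separated the 2 CKD libraries. Spp1 was 0.97 ± 0.11 above AKI in CKD 1 and -0.69 ± 0.14 below it in CKD 2. Cd74, the MHC class II chaperone, was at 12.3 per 10000 in CKD 1 and 0.418 in CKD 2, with differences of 2.82 ± 0.22 and -2.23 ± 0.43. Krt8 was -0.75 ± 0.15 in CKD 1 and 0.01 ± 0.17 in CKD 2, Krt18 -0.88 ± 0.15 and -0.15 ± 0.17, and Gdf15 -0.86 ± 0.14 and -0.13 ± 0.16; none of the CKD 2 values passed. Cxcl10 was at 0.887 and 0.913 in AKI and 5.58 and 1.30 in CKD.

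The 10 largest rises of CKD 1 over AKI were Ctsk, Mmp9, Acp5, Hist1h2ap, S100a4, Tyrobp, AW112010, Rac2, Trbc2 and Lcp1, among them the T cell receptor gene Trbc2 and the leukocyte genes Tyrobp, Rac2 and Lcp1. Acp5, a phosphatase of osteoclasts and macrophages, was at 4.42 in CKD 1 principal cells and at 3.80 in its T lymphocytes, and the protease Ctsk at 2.29 and 2.21. The whole T and NK list summed to 11.6 in CKD 1 principal cells, against 1.99 and 1.49 in AKI and 1.25 in CKD 2, with 8 of 10 tested genes higher. Proximal tubule markers summed to 17.0 against 1.95, 1.23 and 0.511, with 11 of 13 higher, and macrophage markers to 5.30 against 1.00, 1.98 and 0.883, with 4 of 7 higher. MHC class II (5 of 6 higher) and cell cycle genes (10 of 23 higher, and 3 of 15 among cells with 20 or more Aqp2 UMIs) moved the same way in CKD 1. Of the 422 genes, 177 passed among cells with 20 or more Aqp2 UMIs, where 406 could be tested and those 406 kept their direction.

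The 10 largest falls of CKD 1 against AKI were Sprr2f, Cdkn1c, Clic3, Uchl1, Fcgbp, Pcbp3, Wnt4, Raph1, Iigp1 and Ccn2. Without each gene's top cell Clic3 and Uchl1 did not pass and Sprr2f and Cdkn1c could not be tested. In CKD 2 alone Wnt4, a signal that the collecting duct sends to its surroundings, was -0.75 ± 0.45 (adjusted p = 0.690), where CKD 1 had -1.80 ± 0.33. No gene of principal cell identity passed between CKD 1 and AKI in edgeR or DESeq2, but 6 of 11 fell when library totals alone scaled the counts. Among sodium and potassium genes Fxyd5, Fxyd2 and Kcne1 rose in CKD 1, while CKD 2 lay below both AKI libraries for each. Fxyd2 was at 3.00 and 0.600 in AKI, 10.5 in CKD 1 and 0.279 in CKD 2, Fxyd5 at 1.71 and 0.139 in CKD, and Kcne1 at 1.62 and 0.325.

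Against control, CKD 1 differed in 1012 genes (9.7%), with 763 higher (7.32%) and 249 lower (2.39%). Scaling by library totals shifted the median of all genes by -0.20 and gave 695 higher and 654 lower. With CKD 2 in the fit 0 of 9647 passed by edgeR and 926 had an unadjusted p under 0.05, while all 1012 kept their direction. CKD 1 is part of that fit as well, so this direction is no agreement of CKD 2. CKD 2 as the lone CKD library gave 232 of 8181 (2.84%), 160 higher (1.96%) and 72 lower (0.88%). Each fit here rests on the same single control library.

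Rises over control that both CKD libraries showed included Spp1 (5.23 ± 0.16 in CKD 1 and 3.56 ± 0.18 in CKD 2), Ifitm3 (2.75 ± 0.24 and 2.24 ± 0.30), Psmb8 (2.66 ± 0.25 and 1.63 ± 0.37), Nfkbia (1.99 ± 0.22 and 2.13 ± 0.21) and Cebpb (1.55 ± 0.21 and 2.10 ± 0.23). In CKD 1, 16 of 25 injury genes, 21 of 30 interferon genes, 10 of 15 MHC class I and immunoproteasome genes and 10 of 22 NF-kB genes rose and none of these fell. Ribosomal protein genes rose in 44 of 57 cases and cell cycle genes in 14 of 23, but among cells with 20 or more Aqp2 UMIs in 20 of 57 and 4 of 15. With CKD 2 in the fit no gene of any of these groups passed, and CKD 2 held no UMI of Mki67, Pclaf, Birc5 or Mcm3. The leukocyte and proximal tubule markers given above moved with these groups in CKD 1, and their part was not tested.

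Scnn1a and Kcnj10 were below control in each CKD library. The difference of Scnn1a was -1.31 ± 0.23 in CKD 1 and -1.35 ± 0.29 in CKD 2, and that of Kcnj10 -1.35 ± 0.30 and -1.76 ± 0.49. Nr3c2 was -1.35 ± 0.35 and -1.18 ± 0.57, Tfcp2l1 -1.46 ± 0.22 and -0.63 ± 0.24, and Tfap2b -1.47 ± 0.30 and -0.53 ± 0.39, and none of these passed in CKD 2 (adjusted p = 0.355, 0.159 and 0.660). Apela and Npnt fell in CKD 1, Apela from 9.94 in control to 4.46 with 10.5 in CKD 2, and Npnt from 12.9 to 7.37 with 10.1 in CKD 2. The cells of CKD 1 with few Aqp2 UMIs are part of these sums. Over the 11 identity genes tested the median difference of CKD 1 from control was -0.56, and -0.17 among cells with 20 or more Aqp2 UMIs. With CKD 2 in the fit 0 of the 11 passed. The 10 largest falls from control were Slc14a2, Spock3, Mgll, Fstl1, Lratd1, Snn, Lypd6, Atp4a, Pcbp3 and Map2, of which Slc14a2, Spock3, Lratd1 and Atp4a passed in CKD 2 as well. Slc14a2 and Atp4a were at 0 in CKD 2, and Slc14a2 did not pass in CKD 1 without its top cells. The 10 largest rises were Mmp9, Cd3g, Acp5, Ctsk, Ccl5, Vim, Sprr2f, S100a4, C3 and Cd52, of which Cd3g and Ccl5 are on the T and NK list.

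To find where principal cells differed from their neighbours, the change between phases was compared with that in thick ascending limb cells (3200 barcodes by Umod and Slc12a1) and intercalated cells (1030 barcodes by Atp6v1g3) of the same libraries. The model held library as a block and tested the interaction of cell type and phase over all 5 libraries. From control to AKI the change differed from that of thick ascending limb cells in 198 of 12032 genes (1.65%), with the principal cell change higher in 139 (1.16%) and lower in 59 (0.49%). Against intercalated cells it differed in 15 of 10395 genes (0.144%), higher in 7 (0.0673%) and lower in 8 (0.077%). From AKI to CKD it differed from thick ascending limb cells in 39 genes (0.324%), higher in 28 (0.233%) and lower in 11 (0.0914%), and from intercalated cells in 1 (0.00962%). Without control and CKD 2 those AKI to CKD counts were 65 of 11457 (0.567%), 44 higher (0.384%) and 21 lower (0.183%), and 127 of 9918 (1.28%), 67 higher (0.676%) and 60 lower (0.605%).

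Car15 was the 1 gene in the AKI to CKD comparison with intercalated cells. Principal cells held it at 6.91 in control, 27.8 and 28.2 in AKI, and 9.27 and 5.76 in CKD, while intercalated cells held 21.4, 14.8 and 17.0, then 15.9 and 13.6. Principal cells were therefore below intercalated cells in control, above them in AKI and below them again in CKD, and the change differed by 2.62 ± 0.31 log2 units from control to AKI (adjusted p = 0.00271) and by -1.91 ± 0.25 from AKI to CKD (0.0123). Thick ascending limb cells held 21.3 in control, 11.9 and 8.13 in AKI, and 13.1 and 9.88 in CKD, and the differences from them were 3.08 ± 0.33 (1.38e-08) and -2.17 ± 0.27 (3.36e-06).

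Ccn2 and Ociad2 differed in the same direction from control to AKI. Intercalated cells held Ccn2 at 0.297 in control and 0.284 and 0.312 in AKI, and the principal cell change was higher by 3.24 ± 0.42 (adjusted p = 0.00319); against thick ascending limb cells, at 0.378 in control and 0.534 and 0.468 in AKI, it was higher by 2.62 ± 0.40 (1.97e-05). The comparisons of Car15 and Ccn2 with thick ascending limb cells from control to AKI were chosen after their values were seen. Intercalated cells held Ociad2 at 3.39 in control and 3.58 and 3.00 in AKI, above the principal cell level throughout, and the principal cell change was higher by 4.83 ± 0.62 (0.00319). Control principal cells, at 0.0495, were below control T lymphocytes, at 0.246, so the size of this difference rests on a level at background.

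Lcn2 differed in the other direction. Thick ascending limb cells held it at 0.0897 in control, 25.5 and 26.2 in AKI, 11.4 in CKD 1 and 24.3 in CKD 2, so that they started lower than principal cells and reached similar levels in AKI, and the principal cell change was lower by 4.39 log2 units (difference -4.39 ± 0.45, adjusted p = 1.08e-08). The control level of thick ascending limb cells was near that of control T lymphocytes, 0.0636, so the size of this difference rests on a level near background. Intercalated cells were at 0 in control and 2.43 and 4.06 in AKI; the fitted difference of -7.97 ± 1.35 depends on how the 0 is treated and is no estimate of size. In CKD 2 thick ascending limb cells remained at their AKI level of Lcn2 while principal cells were at 9.11.

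**Figure D5:**
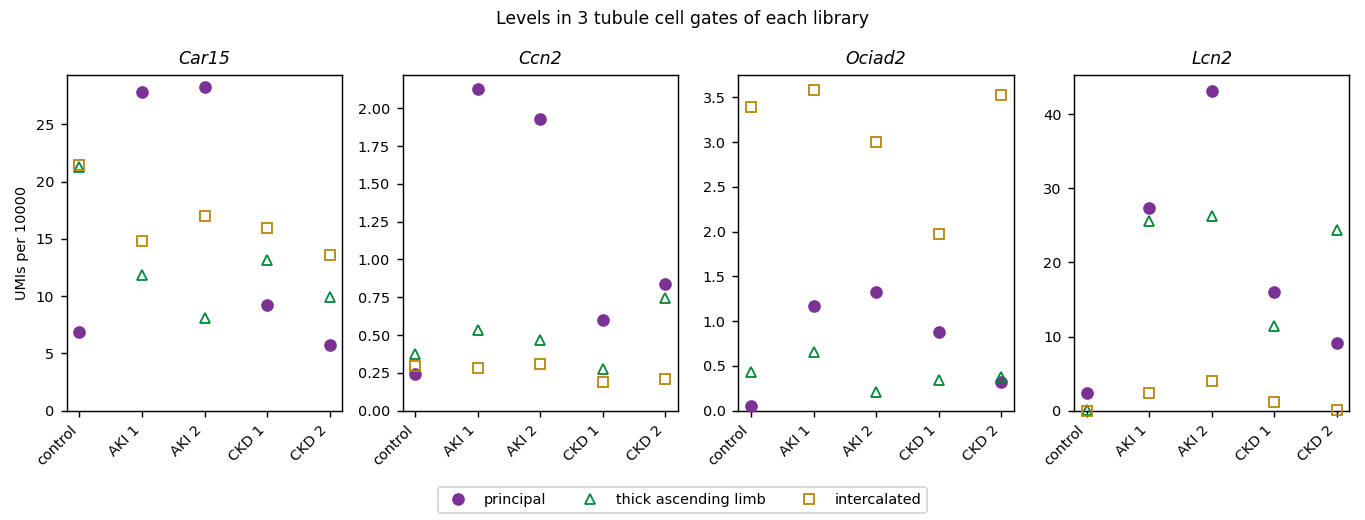
UMIs per 10000 of Car15, Ccn2, Ociad2 and Lcn2 in principal, thick ascending limb and intercalated cells of each library. Car15 in principal cells rose above both neighbours in the 2 AKI libraries, at 27.8 and 28.2, and was below both in control and in the 2 CKD libraries.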

How the data were processed

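For each of the 5 libraries the authors deposited a matrix of UMI counts, whole numbers by gene and barcode. The submitters' notes name Cell Ranger 7.2.0 and GRCm39, while the matrix headers name Cell Ranger 5.0.0 and the control gene list mm10. The study corrected ambient RNA with CellBender and called doublets with scDblFinder; neither step was repeated here. Members and gene lists were chosen with earlier results of these data known. Counts were summed per library and cell type, with genes of the rule and mitochondrial genes left out, and tested in edgeR 4.0.16 (R 4.3.3; TMM, filterByExpr, quasi-likelihood test, Benjamini-Hochberg); DESeq2 1.42.0 was an alternative. Levels are UMIs per 10000. The planned fit on all libraries was restricted to those with at least 20 principal cells, which left 1 residual degree of freedom from the AKI pair, and control and CKD 1 were assumed to vary alike. Interactions over 5 libraries were added after the data were seen. Genes named were the 10 largest changes each way, all genes of 4 lists (identity, vasopressin, sodium transport, injury), up to 8 of each other list and the 5 largest segment differences each way; those most relevant to principal cells are printed, and others were singled out where said. In simulated counts the AKI comparison recovered 18% of 2-fold and 79% of 4-fold changes with 3 false calls among 10112 genes. Every simulated library, control included, was given the spread of the main fit. The simulation therefore cannot show how many false calls arise if control varies more than the AKI pair. Same-numbered AKI and CKD libraries deviated with a correlation of 0.0388, and the labels give the numbers no shared origin, so libraries were not paired. Python 3.11.15, numpy 2.4.6, scipy 1.17.1, pandas 2.3.3 and matplotlib 3.10.9 were used.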

Additional observations from a re-analysis of the deposited data

Results flagged for a closer look

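These results stood out because the change between phases differed between principal cells and another tubule cell type of the same libraries by an interaction test in edgeR. From control to AKI the change differed from that of thick ascending limb cells in 198 genes and from that of intercalated cells in 15, and from AKI to CKD in 39 and 1. Among named genes, from control to AKI the principal cell change of Lcn2 differed by -4.39 log2 units from thick ascending limb cells and by -7.97 from intercalated cells, whose control library held no Lcn2 UMI. That of Car15 differed by 3.08 and 2.62, and that of Ccn2 by 2.62 and 3.24. For Ociad2 the difference from intercalated cells was 4.83, with control principal cells below the level of control T lymphocytes. From AKI to CKD the Car15 change differed by -2.17 from thick ascending limb cells and by -1.91 from intercalated cells. Each gate is made of measured counts, and the 12 principal cells of CKD 2 enter these fits.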

How the results depend on the processing

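The counts of genes that passed depended most on CKD 2, on the test and on the Aqp2 minimum; fits with CKD 2, with at least 20 Aqp2 UMIs and without each gene's top cell were chosen after seeing the data, and the cause of the changes was not tested. For AKI against control, AKI against CKD 1 and control against CKD 1 in turn, DESeq2 gave 96, 84 and 178 genes, the stricter rule 330, 191 and 355, at least 10 Aqp2 UMIs 255, 132 and 400, and CKD 2 in the fit 13, 0 and 0. CKD 2 with at least 20 Aqp2 UMIs gave 101, 0 and 94, and CKD 2 without top cells 48, 0 and 105. At least 20 Aqp2 UMIs alone gave 207 for AKI against CKD and 659 for control against CKD, and thinning to 3000 UMIs gave 176 for control against AKI. On the AKI and CKD libraries with CKD 2, 0 genes passed in edgeR without a replicate block (304 at unadjusted p under 0.05) and 0 with the replicate block (291). Leaving out 1 library gave 46 to 631, 12 to 422 and 167 to 1012 genes, lowest without AKI 1, AKI 1 and AKI 2. The difference in cell share was -0.294 without CKD 1 and 1.74 without CKD 2. For the AKI to CKD change against thick ascending limb cells, DESeq2 gave 21, no filter on low counts 148, all 5 libraries 39 and all 5 with DESeq2 1, and leaving out 1 library 20 to 160; against intercalated cells DESeq2 gave 1, library totals alone 52, and all 5 libraries 1, or 0 with DESeq2, 52 with no filter, 1 with library totals and 36 without top cells, and leaving out 1 library 31 to 135. For the control to AKI change against thick ascending limb cells DESeq2 gave 7 and leaving out 1 library 83 to 414, and against intercalated cells DESeq2 gave 2, no filter 98 and no top cells 48, and leaving out 1 library 56 to 188. Direction turned for Mgp in AKI against control under the stricter rule (0.0427). Between the fit without CKD 1 and that without CKD 2, Krt8 went from 0.0127 to -0.75, Spp1 from -0.69 to 0.97 and Cd74 from -2.23 to 2.82 against AKI, and Car15 from -0.26 to 0.63 against control. Of 120 named genes that passed, 119 still passed with library totals alone, 64 with DESeq2 and 8 with CKD 2. Library numbers do not pair the samples. CKD 2 was limited by its 12 cells and not by their depth.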

Other observations

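From control to AKI, 3 of 21 metallothionein, NRF2 and glutathione genes rose, against 3.72% of all genes tested, and 0 of 23 in DESeq2. Gpx4, which reduces lipid peroxides, was at 3.41 per 10000 in control and 6.16 and 5.61 in AKI, the ferritin chain Fth1 at 23.9, then 32.5 and 34.6, and the thioredoxin reductase Txnrd1 at 0.868, then 1.76 and 1.30. T lymphocytes held Fth1 at 26.7 in control and 39.8 and 42.2 in AKI, above the principal cells, and the part of free RNA was not tested.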
